A study of Mus musculus with 64 samples.

Results

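Potassium channel genes of the mouse brain were followed across 2 brain regions, 2 genotypes and 2 treatments. Members were all genes on the array whose symbol begins with Kcn followed by a subfamily letter. They numbered 78 of the 18194 genes with a probe set of their own, and 6 further symbols beginning with Kcn were not taken by the rule. Each gene was represented by 1 probe set, the one with the highest mean signal. In the comparison of regions 63 of the 78 members passed the filter on low signal and were tested, and 14 members lay below the filter in both regions. Other voltage-gated channel genes were compared only as a separate list.

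Potassium channels let potassium ions leave a cell down their gradient. They set the resting membrane potential and end the action potential. The pore-forming subunits fall into voltage-gated (Kv), calcium- or sodium-activated, inward-rectifying (Kir) and tandem-pore-domain (K2P) classes. Silent subunits (Kv5, Kv6, Kv8 and Kv9) open no channel alone and change the gating of Kv2 partners, while Kv beta subunits, KChIP proteins, KCNE proteins and BK beta subunits are auxiliary. In hippocampus and neocortex different cell types carry different sets of these genes: Kv3 channels serve fast-spiking interneurons, Kir4.1 serves astrocytes, and A-type Kv4 channels act in pyramidal cell dendrites.

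The 64 arrays, 1 per sample, fell into 8 groups of 8. All mice were 4 months old and of the strain B6SJLF1, an F1 cross of C57Bl/6 and SJL. Tg2576 mice over-express a mutant human amyloid precursor protein, and their non-transgenic littermates are called wild-type here. The promoter driving the transgene is not given in the sources used here. Minipumps delivered vehicle or the PDE9A inhibitor PF-04447943 under the skin for 28 days. PDE9A is a phosphodiesterase that breaks down cyclic GMP. RNA came from microdissected hippocampus or prefrontal cortex, so in each region there were wild-type mice on vehicle, wild-type mice on PF-04447943, Tg2576 mice on vehicle and Tg2576 mice on PF-04447943. The design text gives 8 mice per group. The samples of a group are taken as separate mice on that basis, and which hippocampus and cortex came from the same mouse is not stated. In bulk tissue, fewer cells of a type and less RNA per cell cannot be told apart.

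Marker genes separated the regions with 1 exception. The mean log2 intensity of 6 dentate granule cell genes was 7.82 to 9.12 on 31 hippocampal arrays and 5.47 to 6.19 on the 32 prefrontal arrays. Of the 5 tested, 4 were higher in hippocampus, of which Prox1, Dsp and Lct lay below the filter in prefrontal cortex. The other, Pdzd2, was lower in hippocampus, with a log2 difference of -0.55 ± 0.07 (SE). On the array labelled hippocampus, Tg2576, PF-04447943, replicate 1, the mean of the 6 genes was 6.20. There the mean of 8 cortical layer genes was 9.53, against 8.23 to 9.04 on the other hippocampal arrays, and the CA pyramidal cell genes stood at 8.64, against 9.97 to 10.74. This array is called the library labelled hippocampus throughout. The prefrontal arrays also varied in 7 striatal neuron genes, from 8.52 to 11.81. On 2 of them, wild-type PF-04447943 replicate 8 and wild-type vehicle replicate 5, the cortical layer genes stood at 9.23 and 9.45, below the other prefrontal arrays at 9.58 to 9.96. Results that rest on these 3 arrays are given with and without them.

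The region difference, hippocampus minus prefrontal cortex over all 8 groups, was the comparison in which the family moved. Of the 63 members tested, 33 were lower in hippocampus and 15 were higher (limma, Benjamini-Hochberg adjusted p under 0.05). Among all 12955 genes tested, 39.0% were lower and 33.0% were higher. A difference in either direction was called for 48 members, or 76.2%, and for 72.1% of all genes, so that the share called was near the background while the split leaned to lower values in hippocampus. Differences of more than 1 on the log2 scale occurred in 8 members, or 12.7%, against 2.83% of all genes. The median size was 0.35 among the members and 0.16 among all genes. Kcnh5 and Kcne1l are among the 48 but passed the filter only through the region where they are high, so a difference was bound to appear and their values are a description, with no test. Among the 61 members that reached the filter in each region alone, 46 were called, against 71.8% of the 12764 genes that did so. Of these 32 were lower and 14 were higher, against 39.0% and 32.8%, and 7 differed by more than 1, against 2.59%. Without the 3 arrays that stand apart the same 48 members were called, and the largest change in any of their differences was 0.10, for Kcnh5.

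**Figure D1:**
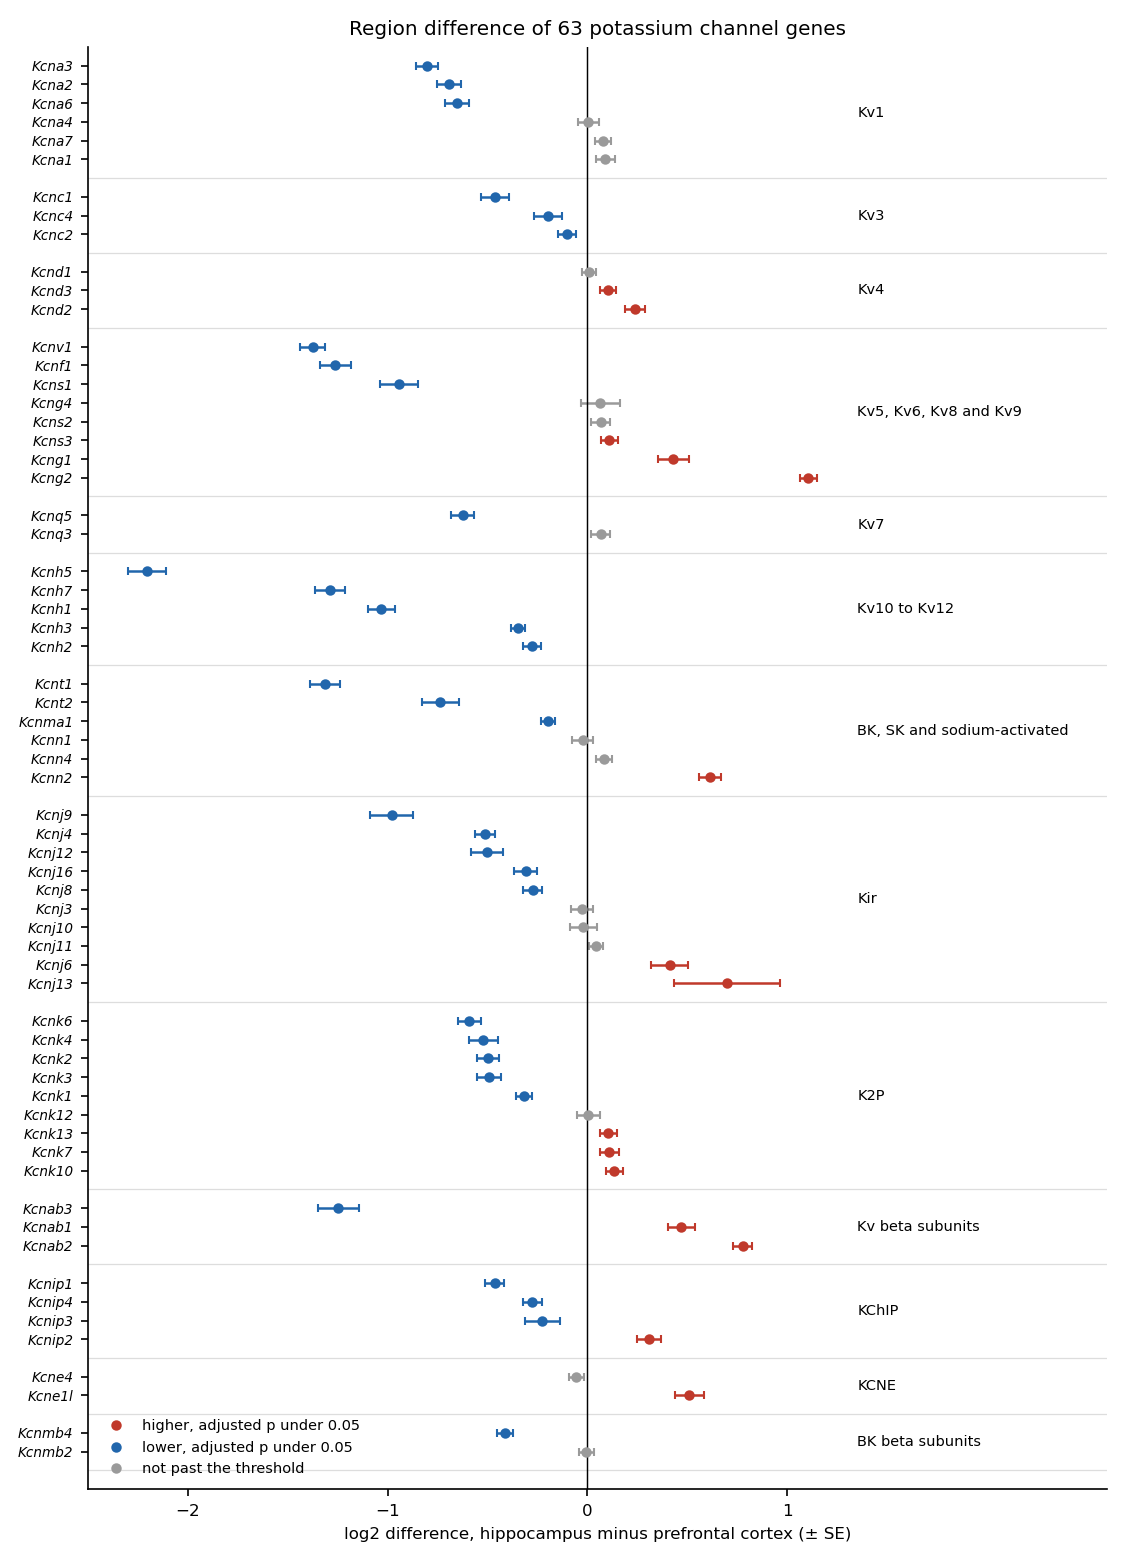
Region difference (log2 intensity, hippocampus minus prefrontal cortex, ± SE from limma, 32 arrays per region) of the 63 members tested, grouped by subfamily. Red points passed the threshold as higher in hippocampus (15 genes), blue points as lower (33 genes) and grey points did not pass (15 genes). All 5 members of Kv10 to Kv12 lie left of 0, and Kv5, Kv6, Kv8 and Kv9 spread from -1.38 to 1.10. Kcnh5 and Kcne1l passed the filter only through the region where they are high and are shown as a description.

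The 48 members were called on the mean of the differences in the 4 genotype and treatment groups. Like signs within these groups are therefore partly built in and are given as a description. Of the 48, 47 had the same sign in each of the 4 groups, Kcnk7 being the exception. In vehicle-treated wild-type mice alone, which are part of the same arrays, 30 of 63 members were lower and 10 were higher. Among all genes 23.8% were lower and 21.1% were higher. A difference in either direction was called for 40 of the 63, against 44.9% of all genes. Kcnh5 and Kcne1l are among both the 48 and the 40, and count there as a description with no test. Of these 40, 39 were also called over all groups with the same sign.

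**Figure D2:**
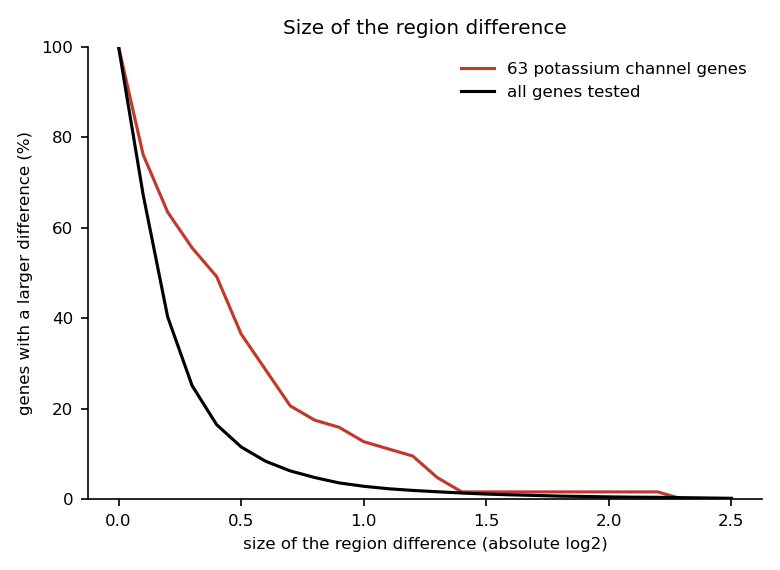
Percentage of genes whose region difference exceeded the size on the horizontal axis (absolute log2 difference), for the 63 potassium channel genes (red) and all 12955 genes tested (black). At a size of 1 the curves stand at 12.7% and 2.83%.

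Complete separation of the arrays was rarer. With all 64 arrays, 1 member, Kcnh5, had no overlap between the regions, against 1.88% of all genes. It is a member that passed the filter through prefrontal cortex alone, and none of the 61 that reached the filter in each region was fully separated. Without the 3 arrays that stand apart, 11 members had none, 9 lower and 2 higher in hippocampus, against 5.67% of all genes. Those lower were Kcna3, Kcna6, Kcnab3, Kcnf1, Kcnh1, Kcnh5, Kcnh7, Kcnt1 and Kcnv1, and those higher were Kcnab2 and Kcng2.

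Kv10 to Kv12, the ether-a-go-go related channels encoded by the Kcnh genes, were the subfamily with the lowest median difference, -1.03. All 5 members with a value, Kcnh5 included, were lower in hippocampus, and the median rests on all 5. Kcnh5 passed the filter through prefrontal cortex alone and counts as a description without a test, while Kcnh8 lay below the filter. Kcnh5, which encodes the Kv10.2 pore, ranged from 4.89 to 6.64 log2 intensity in hippocampus, with a median of 5.36. In prefrontal cortex it ranged from 6.68 to 8.33, with a median of 7.66. Every hippocampal array was below every prefrontal array, the highest hippocampal value being that of the library labelled hippocampus. Its hippocampal mean of 5.40 lay below the hippocampal filter of 5.94, and it was not tested within hippocampus. The measured difference was -2.21 ± 0.10 (SE, 32 arrays per region), and -2.31 without the 3 arrays, and no fold or p is given against so dim a signal. It lay between -2.32 and -2.06 in the 4 genotype and treatment groups.

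Kcnh7 encodes Kv11.3, a relative of the cardiac repolarising channel Kv11.1. It had a median of 6.94 in hippocampus, between 6.54 and 7.42, and of 8.34 in prefrontal cortex, between 7.26 and 8.93. In 31 of 32 prefrontal arrays it exceeded every hippocampal array, and the difference was -1.29 ± 0.07 (adjusted p = 1.0e-23). Kcnh1, encoding Kv10.1, had a median of 9.22 in hippocampus, between 9.0 and 10.73, and of 10.32 in prefrontal cortex, between 9.84 and 10.82. The value of 10.73 belonged to the library labelled hippocampus, and the other 31 hippocampal arrays lay below every prefrontal array. Its difference was -1.03 ± 0.07 (adjusted p = 6.7e-21), and -1.11 without the 3 arrays. Kcnh3 at -0.35 and Kcnh2 at -0.28 were lower by smaller amounts, with overlapping arrays.

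**Figure D3:**
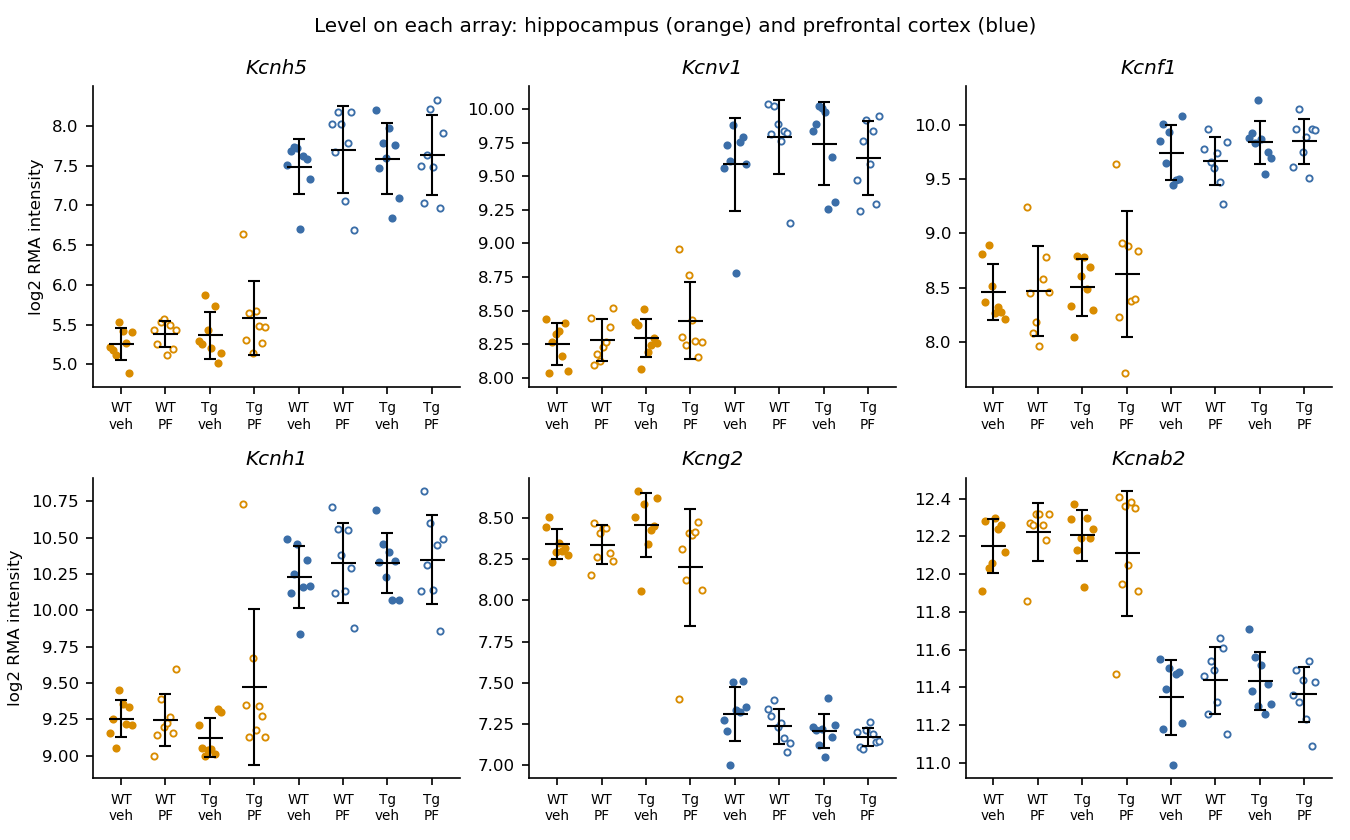
Log2 intensity of 6 members on each array by group (WT, wild-type; Tg, Tg2576; veh, vehicle, filled; PF, PF-04447943, open; 8 arrays per group), with the mean and SD in black. Kcnh5, Kcnv1, Kcnf1 and Kcnh1 lie lower in hippocampus (orange) than in prefrontal cortex (blue), and Kcng2 and Kcnab2 lie higher, while the library labelled hippocampus is the outlying open orange point in the Tg PF group, at 10.73 for Kcnh1 and 7.40 for Kcng2.

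Upstream sequence was available for 60 of the 78 members from RefSeq on the build GRCm38.p6, which is not stated to be the build behind the array. The 200 bases before the first listed start are shown for the 3 Kcnh genes that differ by more than 1, for Kcnf1, a silent subunit that is lower in hippocampus, and for Kcnab2, an auxiliary subunit that is higher there. Each is written on the strand of its gene. Capitals mark matches, on either strand, to 4 motifs. GGGCGG is the GC box bound by Sp1. TATAAA is the box bound by the TATA-binding protein. CCAAT is the box bound by NF-Y. TGACG is the core of the cyclic AMP response element. None of the matches overlap in these windows.
Kcnh5 (chr12:75177333-75177532, minus strand): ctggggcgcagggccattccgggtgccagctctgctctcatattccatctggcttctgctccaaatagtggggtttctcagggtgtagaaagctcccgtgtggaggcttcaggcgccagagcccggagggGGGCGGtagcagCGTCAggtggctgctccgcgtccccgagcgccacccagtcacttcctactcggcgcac
Kcnh7 (chr2:63184288-63184487, minus strand): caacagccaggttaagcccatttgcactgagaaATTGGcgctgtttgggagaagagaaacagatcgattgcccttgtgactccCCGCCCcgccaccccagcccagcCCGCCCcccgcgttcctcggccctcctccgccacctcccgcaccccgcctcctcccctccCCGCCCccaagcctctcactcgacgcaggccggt
Kcnh1 (chr1:192190577-192190776, plus strand): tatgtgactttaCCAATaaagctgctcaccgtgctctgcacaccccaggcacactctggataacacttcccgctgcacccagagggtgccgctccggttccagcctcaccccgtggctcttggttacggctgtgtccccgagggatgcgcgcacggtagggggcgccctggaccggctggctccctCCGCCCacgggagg
Kcnf1 (chr12:17176889-17177088, minus strand): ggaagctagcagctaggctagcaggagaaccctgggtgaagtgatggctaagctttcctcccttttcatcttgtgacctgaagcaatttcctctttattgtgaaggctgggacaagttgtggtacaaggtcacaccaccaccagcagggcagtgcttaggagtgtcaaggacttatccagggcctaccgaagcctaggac
Kcnab2 (chr4:152477550-152477749, minus strand): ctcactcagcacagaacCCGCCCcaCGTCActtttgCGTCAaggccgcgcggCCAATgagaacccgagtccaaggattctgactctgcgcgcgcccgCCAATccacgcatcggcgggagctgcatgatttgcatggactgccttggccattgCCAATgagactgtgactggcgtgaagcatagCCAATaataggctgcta

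The 3 Kcnh windows are rich in G and C, at 65.0% to 67.5%, and each holds at least 1 GC box, Kcnh7 holding 3. The Kcnf1 window, at 52.0%, holds none of the 4 motifs. Kcnab2 holds 4 CCAAT matches and 2 response element cores. No TATAAA occurs in these 5 windows. A GC box was found in 13 of the 27 windows of members lower in hippocampus, or 48.1%, in 8 of the 12 of members higher there, or 66.7%, and in 31.3% of the 27025 windows of all genes in the table. The CCAAT box was found in 22.2%, 25% and 30.0% of these sets, and the response element core in 22.2%, 16.7% and 15.8%. TATAAA was found in 1 window of each member set, and in 10.6% of all windows. These matches describe the letters of the windows only.

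The silent subunits went both ways, 3 lower and 3 higher of 8 tested. Kcnv1, encoding Kv8.1, ranged from 8.03 to 8.96 in hippocampus with a median of 8.27, and from 8.78 to 10.04 in prefrontal cortex with a median of 9.78. In both regions 31 of 32 arrays lay clear of the other region, and the difference was -1.38 ± 0.06 (2.59-fold lower, adjusted p = 2.6e-28). Kcnf1, encoding Kv5.1, had a median of 8.46 in hippocampus, between 7.71 and 9.64, and of 9.81 in prefrontal cortex, between 9.27 and 10.23. The highest hippocampal value again came from the library labelled hippocampus, and the other 31 arrays were below every prefrontal array. Its difference was -1.26 ± 0.08 (adjusted p = 8.7e-22). Kcns1, encoding Kv9.1, differed by -0.94 ± 0.10, with medians of 6.85 and 7.84, and 27 of 32 prefrontal arrays exceeded every hippocampal array.

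Kcng2, encoding Kv6.2, was the member furthest above its prefrontal level. It ranged from 7.40 to 8.66 in hippocampus with a median of 8.38, and from 7.0 to 7.51 in prefrontal cortex with a median of 7.22. All hippocampal arrays but the library labelled hippocampus lay above every prefrontal array. The difference was 1.10 ± 0.04 (2.15-fold higher, adjusted p = 1.5e-31) and 1.13 without the 3 arrays. Kcng1, encoding Kv6.1, was higher by 0.43 ± 0.08 with overlapping arrays. Kcns3 passed the threshold at 0.11 ± 0.04, and stood at -0.06 when the striatal marker level entered the fit.

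Of the 6 members of Kv1, the low-threshold channels of axons, 3 were lower and none was higher. Kcna3, encoding Kv1.3, ranged from 6.53 to 7.72 in hippocampus with a median of 6.85, and from 7.33 to 8.41 in prefrontal cortex with a median of 7.71. The difference was -0.80 ± 0.05 (1.75-fold lower, adjusted p = 2.6e-20), and 31 of 32 hippocampal arrays were below every prefrontal array. Kcna2 and Kcna6, the others called, differed by -0.69 and -0.65. For Kcna1, encoding Kv1.1, the probe sets disagreed: the one taken gave 0.09 ± 0.05 (adjusted p = 0.077), another gave 0.09 ± 0.04 (adjusted p = 0.025 with all probe sets tested) and one more gave -0.17 ± 0.04 (adjusted p = 2.5e-04). No direction is given for Kcna1. Kcna5 lay below the filter in the joint comparison. It was tested in prefrontal cortex alone, where it ranged from 4.68 to 8.98.

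All 3 members of Kv3, the channels that let interneurons fire fast, were lower in hippocampus in their chosen probe set. Kcnc1, encoding Kv3.1, had a median of 10.28 in hippocampus, between 9.80 and 10.60, and of 10.81 in prefrontal cortex, between 10.20 and 11.48. Its difference was -0.46 ± 0.07 (adjusted p = 3.3e-08), but 2 of its other probe sets gave 0.22 ± 0.06 and 0.10 ± 0.03, both past the threshold, and the mean of its probe sets gave -0.04 (adjusted p = 0.28). The direction for Kcnc1 therefore rests on the probe set. Kcnc4 at -0.20 and Kcnc2 at -0.10 both lost the call when an RNA quality measure entered the fit. This measure is the mean log2 difference between the 3′ and 5′ control probe sets of actin and Gapdh, and it stood at 0.077 ± 0.053 (SD, 32 arrays) in hippocampus and 0.128 ± 0.061 in prefrontal cortex. Both calls were also lost with the signal range in the fit, and that of Kcnc2 in 28 of the 64 fits that left out 1 array. Genes of inhibitory neurons, whose fast-spiking class uses Kv3 channels, were also lower in hippocampus for 5 of 8 tested and higher for none, and their part in the result was not tested.

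Of the 3 members of Kv4, the A-type channels, 2 were higher in hippocampus and none was lower. Kcnd2, encoding the dendritic Kv4.2, had a median of 11.12 in hippocampus, between 10.24 and 11.48, and of 10.85 in prefrontal cortex, between 10.62 and 11.11. The lowest hippocampal value was that of the library labelled hippocampus, and 16 of 32 hippocampal arrays exceeded every prefrontal array. The difference was 0.24 ± 0.05 (1.18-fold, adjusted p = 1.5e-05). Kcnd3 differed by 0.10 ± 0.04, a call that was lost with median centring (0.08, adjusted p = 0.10), and Kcnd1 stood at 0.01 ± 0.04.

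Kv7 channels carry the M-current that muscarinic receptors close. Kcnq5 was lower in hippocampus, with a median of 9.34 against 9.92 and a difference of -0.62 ± 0.06 (adjusted p = 8.6e-15). Kcnq3 stood at 0.07 ± 0.05 (adjusted p = 0.19), and Kcnq1 lay below the filter.

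Among the 6 calcium- and sodium-activated channels tested, 3 were lower and 1 was higher. Kcnt1, encoding the sodium-activated channel Slack, ranged from 7.46 to 9.65 in hippocampus with a median of 8.40, and from 9.36 to 10.05 in prefrontal cortex with a median of 9.72. The value of 9.65 came from the library labelled hippocampus, and the other 31 arrays were below every prefrontal array. Its difference was -1.31 ± 0.08 (2.49-fold lower, adjusted p = 1.5e-23). Its relative Kcnt2 differed by -0.74 ± 0.09 with overlapping arrays, and Kcnma1, the BK pore, by -0.20 ± 0.03. Kcnn2, encoding the small-conductance calcium-activated channel SK2, went the other way. It had a median of 9.31 in hippocampus, between 8.23 and 9.73, and of 8.70 in prefrontal cortex, between 8.27 and 9.10. In 28 of 32 hippocampal arrays it exceeded every prefrontal array, and the difference was 0.61 ± 0.06 (adjusted p = 1.3e-14).

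Inward rectifiers hold cells near the potassium equilibrium, and of 10 tested 5 were lower and 2 were higher. Kcnj9, encoding the G protein-gated subunit Kir3.3, had a median of 9.52 in hippocampus, between 8.54 and 10.52, and of 10.63 in prefrontal cortex, between 9.67 and 11.27. The difference was -0.98 ± 0.11 (adjusted p = 4.4e-12), and 2 of its other probe sets gave -1.01 and -0.71, while its dimmest gave 0.07 ± 0.05, not past the threshold. Kcnj6, encoding its partner Kir3.2, was higher in hippocampus by 0.41 ± 0.09 (adjusted p = 7.2e-05), while Kcnj3, encoding Kir3.1, stood at -0.03 ± 0.05 (adjusted p = 0.65). The 3 neuronal subunits of this G protein-gated channel thus had differences of -0.98, 0.41 and -0.03. Kcnj10, encoding the astrocytic Kir4.1, stood at -0.02 ± 0.07, and Kcnj16, encoding its partner Kir5.1, was lower by 0.31 ± 0.06 on the log2 scale.

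Kcnj13, encoding Kir7.1 of transporting epithelia such as the choroid plexus, had the widest spread of all members. It ranged from 5.35 to 10.46 in hippocampus with a median of 6.52, and from 4.84 to 7.0 in prefrontal cortex with a median of 6.24. On 7 hippocampal arrays it exceeded every prefrontal array. The difference was 0.70 ± 0.27 (adjusted p = 0.017) over all groups and 1.30 ± 0.53 (adjusted p = 0.040) in vehicle-treated wild-type mice. Both calls were lost with the signal range in the fit (0.55, adjusted p = 0.067, and 1.16, adjusted p = 0.065) and with the RNA quality measure in it (0.40, adjusted p = 0.21, and 0.96, adjusted p = 0.14). The call in vehicle-treated wild-type mice was lost when wild-type vehicle hippocampal replicate 1, 2, 4 or 5, or prefrontal replicate 1, 2, 3, 6 or 7, was left out, at values from 0.90 to 1.30. The mean of 8 choroid plexus genes split the hippocampal arrays in the same way, 25 arrays at 6.08 to 7.23 and 7 arrays at 8.28 to 10.43, of which 4 were from vehicle-treated wild-type mice and 1 from each other group. On the 25 arrays Kcnj13 lay between 5.35 and 6.78, and on the 7 between 8.17 and 10.46. The part of choroid plexus tissue in the region difference was not tested, and no pooled correlation is given across these clusters. Within the 25 arrays Pearson's r was 0.53 (permutation p = 0.0064) and Spearman's rho 0.53 (permutation p = 0.0072), and r was 0.55 without the 2 arrays farthest from the median. Within the 7 arrays r was 0.98 and rho 1 (both exact permutation p = 4.0e-04, the smallest they can give). Without the 2 farthest r was 0.95. The 7 arrays were permuted without regard to genotype and treatment group. The p-values within the 25 and the 7 arrays were not adjusted.

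**Figure D4:**
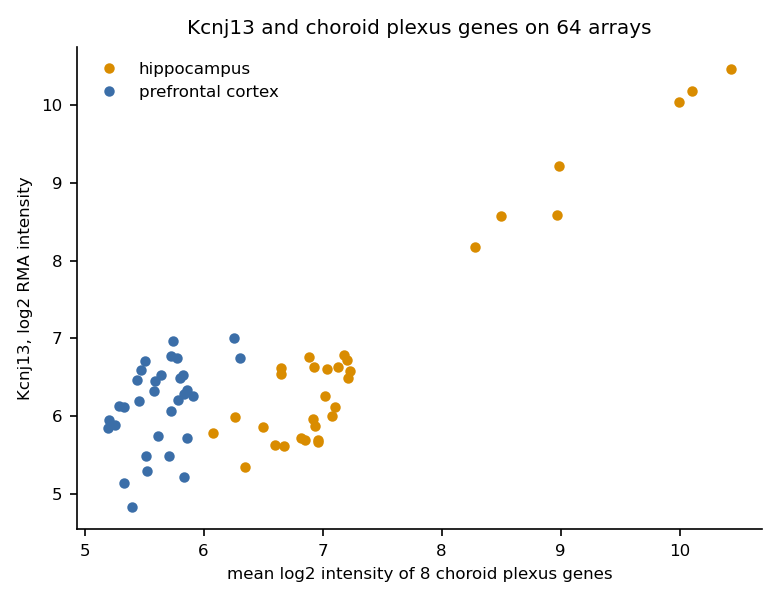
Log2 intensity of Kcnj13 against the mean log2 intensity of 8 choroid plexus genes on each of the 64 arrays (orange, hippocampus; blue, prefrontal cortex). The 7 hippocampal arrays with a list level of 8.28 or more have Kcnj13 at 8.17 or more, and the other 25 lie at 6.78 or below.

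Tandem-pore-domain channels carry background leak current, and of 9 tested 5 were lower and 3 were higher in hippocampus. Kcnk6, encoding TWIK-2, had a median of 6.56 in hippocampus, between 6.30 and 6.95, and of 7.13 in prefrontal cortex, between 6.68 and 7.80, with a difference of -0.59 ± 0.06 (adjusted p = 5.9e-14). Kcnk4, Kcnk2, Kcnk3 and Kcnk1, which encode TRAAK, TREK-1, TASK-1 and TWIK-1, differed by -0.52, -0.50, -0.49 and -0.32. Of those higher, Kcnk10, encoding TREK-2, had the largest difference, 0.13 ± 0.04, and Kcnk7 and Kcnk13 stood at 0.11 and 0.10. Each of these 3 calls was lost when the RNA quality measure entered the fit. With that fit counted, Kcnk7 lost its call in 4 alternative fits and Kcnk13 in 2. Over the alternatives Kcnk7 lay between 0.03 and 0.15, with a limma adjusted p of up to 0.44. The Kcnk7 call was also lost without prefrontal wild-type vehicle replicate 1 (0.096, adjusted p = 0.052).

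The Kv beta subunits, which bind Kv1 pores in the cytoplasm, all differed between the regions. Kcnab2 ranged from 11.47 to 12.41 in hippocampus with a median of 12.25, and from 10.99 to 11.71 in prefrontal cortex with a median of 11.43. Only the library labelled hippocampus overlapped the prefrontal arrays, and the difference was 0.78 ± 0.05 (1.71-fold higher, adjusted p = 1.5e-22). Kcnab1 was higher by 0.47 ± 0.07. Kcnab3 was lower, with a median of 7.80 against 9.06 and a difference of -1.25 ± 0.10 (2.37-fold lower, adjusted p = 7.2e-17). The 3 Kv1 pores called thus had the direction of Kcnab3 and not of the other two beta subunits.

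KChIP proteins bind Kv4 pores, and 3 of 4 were lower in hippocampus while 1 was higher. Kcnip1 was furthest below its prefrontal level, at -0.46 ± 0.05, with medians of 8.38 and 8.85. Kcnip2, the KChIP of A-type currents in pyramidal neurons and heart, was higher by 0.31 ± 0.06, with medians of 11.22 and 10.91. Kcnip3 at -0.23 lost the call with the signal range (-0.18, adjusted p = 0.063), the RNA quality measure (-0.17, adjusted p = 0.11) or the striatal marker level (-0.21, adjusted p = 0.070) in the fit. Kcne1l, a KCNE gene also called Kcne5, had a measured difference of 0.51 ± 0.07, with medians of 6.42 and 5.86 and overlapping arrays. Its prefrontal mean of 5.88 lay below the prefrontal filter of 5.91, so it passed through hippocampus alone. Of the remaining auxiliary genes Kcnmb4, the neuronal BK beta subunit, was lower by 0.41 ± 0.04 on the log2 scale. Kcne4 stood at -0.06 ± 0.04 and Kcnmb2 at -0.01 ± 0.04, neither past the threshold.

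By role, 25 of 44 pore-forming members were lower in hippocampus and 8 were higher, Kcnh5 being counted among the lower without a test. Of 8 silent subunits 3 were lower and 3 higher. Of 11 auxiliary members 5 were lower and 4 higher, Kcne1l being counted among the higher without a test. Among all genes tested 39.0% were lower and 33.0% were higher. The 15 members that did not pass had differences of at most 0.09 in size, and their estimates carried up to 0.19 in 2 standard errors. Of 27 called members with more than 1 probe set tested, 24 had the same sign in all of them, and Kcnc1, Kcnj9 and Kcnma1 did not.

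Proteins that bind these channels were compared from a separate list. Of 20 partner genes tested, 6 were higher and 11 lower in hippocampus, against 33.0% and 39.0% of all genes. Dpp10, whose product is an auxiliary subunit of Kv4 channels, was lower by 2.25 ± 0.12 on the log2 scale (adjusted p = 1.8e-24), and its relative Dpp6 was higher by 0.49 ± 0.03 (adjusted p = 1.5e-22). The scaffold gene Dlg1 differed by -0.93 ± 0.04 and the junctophilin gene Jph4 by 1.06 ± 0.05. Of 26 other voltage-gated channel genes, 9 were higher and 13 lower, against the same shares of all genes. The sodium channel beta subunit gene Scn3b differed by 1.31 ± 0.07, the T-type calcium channel gene Cacna1h by 1.38 ± 0.07 and the R-type gene Cacna1e by 0.64 ± 0.03. Cacng3, also on the list, differed by -1.04 ± 0.05. The median difference was -0.11 for partners, -0.06 for other voltage-gated channels and -0.20 for the potassium channel genes, against -0.02 for all genes.

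Cell type markers also differed between the regions, where 33.0% of all genes were higher in hippocampus and 39.0% were lower. Oligodendrocyte genes were higher in hippocampus for 9 of 9 tested, with list levels of 9.90 to 11.77 against 10.25 to 11.24, and choroid plexus genes for 5 of 5, of which Kl and Sostdc1 lay below the filter in prefrontal cortex. Striatal genes were lower for 7 of 7 (list levels 8.36 to 9.26 against 8.52 to 11.81), endothelial genes for 7 of 7, and cortical layer genes were lower for 5 and higher for 2 of 8. The part of these markers in the region difference was not tested. With the striatal list level in the fit 54 members were called, 46 of them among the 48. That level itself differs between the regions, so the fit cannot tell its part from that of the region.

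Members were set against marker lists across the 32 arrays of a region, each value centred on its group mean. In all 16 relations were computed, p-values come from 100000 permutations within groups, and the arrays share their processing and signal range. Kcnj10 and the astrocyte genes had r = 0.60 and rho = 0.64 in hippocampus (adjusted permutation p = 8.0e-04 and 5.6e-04), and r was 0.57 without the 2 arrays farthest from the median. In prefrontal cortex the same pair had r = 0.19 (adjusted permutation p = 0.37) and rho = 0.16 (adjusted permutation p = 0.48). Kcnj16 and the astrocyte genes had r = 0.67 and rho = 0.64 in prefrontal cortex (adjusted permutation p = 4.0e-04 and 5.6e-04), and r = 0.39 with rho = 0.52 in hippocampus (adjusted permutation p = 0.060 and 0.0092). Without the 2 farthest arrays these r values were 0.56 and 0.42. Whether a pair differed between the regions was not tested.

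Kcnc1 and the inhibitory neuron genes had r = 0.65 and rho = 0.69 in prefrontal cortex (adjusted permutation p = 8.0e-04 and 5.6e-04), and 0.68 without the 2 farthest arrays. Kcnc2 and the same genes had r = 0.46 and rho = 0.51 there (adjusted permutation p = 0.035 and 0.016), and 0.49 without them. In hippocampus r was 0.20 for Kcnc1 (adjusted permutation p = 0.36) and 0.17 without the 2 farthest arrays. For Kcnc2 it was 0.29 there (adjusted permutation p = 0.17), and 0.49 without the 2 farthest arrays (adjusted permutation p = 0.021), so the call depends on them. Kcnj13 and the choroid plexus genes had r = 0.44 and rho = 0.39 in prefrontal cortex (adjusted permutation p = 0.042 and 0.074), which was 0.32 without the 2 farthest arrays (adjusted permutation p = 0.19) and so rests on them. For Kcnip2 and the striatal genes in hippocampus r was -0.61 (adjusted permutation p = 0.060), and -0.18 without the 2 farthest arrays. Kcnk13 and the microglial genes had r = 0.40 and rho = 0.40 in prefrontal cortex (adjusted permutation p = 0.060 and 0.074), and r = 0.48 without the 2 farthest arrays (adjusted permutation p = 0.028). The other relations, of Kcnj8 with mural cell genes, Kcnk13 in hippocampus and Kcnip2 in prefrontal cortex, had r between 0.03 and 0.38 and adjusted permutation p of 0.060 or more, and none passed without the 2 farthest arrays.

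The transgene moved no member past the threshold in either region. Over both treatments in hippocampus 0 of 62 members passed (0.0925% of all genes did), and 7 had an unadjusted p under 0.05, against 8.13% of all genes. Kcnip1 came first. It had medians of 8.52 in Tg2576 mice and 8.28 in wild-type mice on vehicle, and of 8.50 and 8.27 on PF-04447943, with overlapping arrays. The difference was 0.22 ± 0.06, and 14 of 16 Tg2576 arrays exceeded the mean of wild-type mice given the same treatment (limma adjusted p = 0.19). Next were Kcng4 at -0.22 ± 0.07, Kcnmb2 at 0.12 ± 0.05, Kcnh7 at 0.17 ± 0.07 and Kcnd1 at 0.10 ± 0.04. In prefrontal cortex 0 of 63 members passed (0.0464% of all genes), and 7 had an unadjusted p under 0.05 (12.2% of all genes). Kcna3 came first at 0.22 ± 0.07, above the wild-type mean in 15 of 16 arrays (adjusted p = 0.28), followed by Kcnk7 at -0.15 ± 0.07, Kcnh3 at -0.10 ± 0.05, Kcna4 at 0.16 ± 0.07 and Kcng2 at -0.09 ± 0.04. The transgene and drug comparisons within a region share arrays.

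PF-04447943 moved 1 of 62 members in hippocampus, against 2.34% of all genes, and 7 members had an unadjusted p under 0.05, against 21.6%. Kcnn4, encoding the intermediate-conductance calcium-activated channel, fell. In Tg2576 mice it ranged from 6.29 to 6.86 on vehicle with a median of 6.61, and from 6.12 to 6.62 on the drug with a median of 6.42. In wild-type mice it ranged from 6.32 to 6.88 on vehicle with a median of 6.60, and from 6.09 to 6.59 on the drug with a median of 6.35. The groups overlapped, and 14 of 16 treated arrays lay below the vehicle mean of their genotype. The difference was -0.22 ± 0.06, a 1.17-fold lower signal (limma adjusted p = 0.041). The probe set lies near the filter, and its log2 mean in hippocampus was 6.48 against a filter of 5.94.

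Array signal range moved with the drug in hippocampus. The interquartile range of log2 intensity was 3.52 ± 0.10 (SD, n = 16) on vehicle and 3.63 ± 0.09 on the drug. With the range in the fit Kcnn4 stood at -0.09 ± 0.05 (adjusted p = 0.88) and Kcnk4, encoding TRAAK, at 0.24 ± 0.04 (adjusted p = 0.018). The Kcnn4 call was also lost in 17 of the 32 fits that left out 1 hippocampal array, with an adjusted p of at most 0.078, while its difference stayed between -0.25 and -0.20. It was lost as well with quantile normalization (-0.20, adjusted p = 0.076) and with median centring (-0.21, adjusted p = 0.058). After Kcnn4 came Kcna4 at 0.21 ± 0.07, Kcnk7 at -0.18 ± 0.06, Kcnip4 at 0.18 ± 0.07 and Kcnc2 at 0.13 ± 0.05, none past the threshold. The probe sets of Kcnh3 disagreed. The chosen one gave -0.08 ± 0.05 (limma adjusted p = 0.36), and another gave -0.28 ± 0.05 (limma adjusted p = 0.012 with all probe sets tested). Pde9a, the gene of the drug's target, stood at 0.08 ± 0.11 (adjusted p = 0.68) in hippocampus and -0.07 ± 0.05 (adjusted p = 0.9997) in prefrontal cortex.

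**Figure D5:**
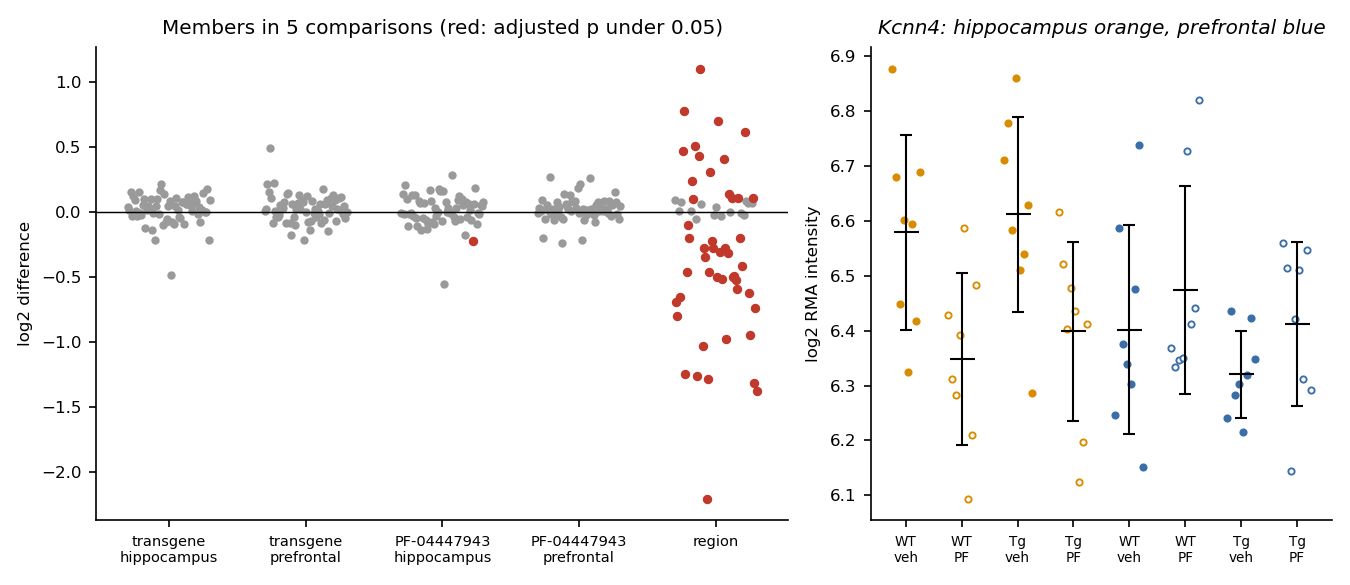
Left, log2 difference of each member (1 point each, ordered by symbol) for the transgene and the drug in each region and for the region difference; red points passed an adjusted p of 0.05. Right, Kcnn4 log2 intensity on each array by group (8 per group, WT or Tg, vehicle filled, PF-04447943 open) with mean and SD; the orange hippocampal means are 6.58 and 6.61 on vehicle and 6.35 and 6.40 on the drug.

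In prefrontal cortex the drug moved 0 of 63 members past the threshold (0.00773% of all genes), and 2 had an unadjusted p under 0.05 (2.33% of all genes). Kcnj12 at 0.21 ± 0.09, Kcns2 at 0.15 ± 0.06, Kcng1 at -0.24 ± 0.12, Kcnj9 at 0.26 ± 0.14 and Kcnj10 at 0.18 ± 0.11 came first, each with an adjusted p of 0.9997. Kcnn4 was not among them. The drug effect in hippocampus minus that in prefrontal cortex was called for 0 of 63 members (0.00772% of all genes), with 3 at an unadjusted p under 0.05 (9.72% of all genes). Kcnn4 came first in that comparison at -0.30 ± 0.08 (adjusted p = 0.12), followed by Kcnk7 at -0.20, Kcnk13 at 0.17, Kcns2 at -0.16 and Kcnmb2 at -0.13. For the transgene effect by region 0 of 63 passed (0.0% of all genes), with 2 at an unadjusted p under 0.05 (7.04% of all genes), and Kcna7 at 0.17, Kcnk7 at 0.19, Kcng1 at -0.28, Kcna4 at -0.19 and Kcnd2 at -0.16 came first.

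Within hippocampus, 0 of 62 members passed in the 4 comparisons between single groups or in the interaction. For the transgene under vehicle (0.00771% of all genes), 4 members had an unadjusted p under 0.05 (5.62% of all genes), and Kcnmb2 at 0.17, Kcng4 at -0.23, Kcnip1 at 0.18, Kcnk13 at -0.20 and Kcnab3 at 0.19 came first. For the transgene under PF-04447943 (0.0%), 6 members had one (5.0% of all genes), led by Kcnip1 at 0.25, Kcnd1 at 0.19, Kcnk4 at 0.18, Kcnh7 at 0.25 and Kcng4 at -0.21. For the drug in wild-type mice (0.0386%), 4 members had one (13.6% of all genes), led by Kcnd1 at -0.20, Kcnn4 at -0.23, Kcnk7 at -0.22, Kcna4 at 0.25 and Kcnc2 at 0.14.

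The drug comparison in Tg2576 mice holds the library labelled hippocampus. There 0.0% of all genes passed, and 7 members had an unadjusted p under 0.05 (11.1% of all genes), led by Kcnk2 at 0.27, Kcnn4 at -0.21, Kcnh1 at 0.35, Kcng2 at -0.26 and Kcnk4 at 0.17. Without that array Kcnk2 stood at 0.17, Kcnh1 at 0.17 and Kcng2 at -0.14. For the drug by genotype interaction (0.0%), 3 members had an unadjusted p under 0.05 (2.78% of all genes), led by Kcnk2 at 0.29, Kcnn2 at -0.38, Kcnd1 at 0.18, Kcnh1 at 0.36 and Kcng2 at -0.25. Without the array Kcnn2 stood at -0.24, Kcnh1 at 0.18 and Kcng2 at -0.14. Kcnj13 had the largest measured differences of any member in hippocampus for the transgene under vehicle, -1.02 ± 0.68, for the drug in wild-type mice, -1.10 ± 0.68, and for the interaction, 1.08 ± 0.96, none past the threshold. Under PF-04447943 the transgene difference was 0.06, and in Tg2576 mice the drug difference was -0.02. The first 3 comparisons share the vehicle-treated wild-type arrays. Of the 7 arrays with high choroid plexus genes, 4 belong to vehicle-treated wild-type mice, and the part of that tissue in these differences was not tested.

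Within prefrontal cortex 0 of 63 members passed in any of these comparisons, and 0.0% of all genes did. For the transgene under vehicle 6 members had an unadjusted p under 0.05 (12.1% of all genes), led by Kcnk7 at -0.29, Kcnk13 at -0.19, Kcna3 at 0.23, Kcne4 at -0.18 and Kcna7 at -0.18. For the transgene under PF-04447943 3 had one (3.68% of all genes), led by Kcnh3 at -0.15, Kcna3 at 0.20, Kcnab1 at 0.32, Kcna4 at 0.19 and Kcnip4 at 0.17, which was 0.07 without the 2 prefrontal arrays that stand apart. For the drug in Tg2576 mice 1 had one (3.01% of all genes), led by Kcnj12 at 0.29, Kcne4 at 0.14, Kcnk7 at 0.16, Kcna7 at 0.12 and Kcnip4 at 0.13. For the drug in wild-type mice 2 had one (2.52% of all genes), led by Kcnk13 at -0.18, Kcns2 at 0.20, Kcnj9 at 0.38, Kcng1 at -0.32 and Kcnab3 at 0.46. For the interaction 1 had one (3.31% of all genes), led by Kcnk7 at 0.29, Kcnk13 at 0.20, Kcne4 at 0.19, Kcna7 at 0.19 and Kcnv1 at -0.31. The partner genes and the other voltage-gated channel genes likewise gave no call in any transgene or drug comparison.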

How the data were processed

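RNA of each sample was hybridised to an Affymetrix mouse whole-genome array. The deposited series table holds linear intensity values per probe set. RMA is named for them in the submitters' processing notes, with no settings or genome build. The intensities ranged from 5.87 to 34089 and were taken to log2. Array medians of 90.9 to 100.69 show that arrays had been put on a like scale. The number of arrays limits the precision.

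Probe sets were named through GEO's platform annotation: of 45101, 34958 had 1 gene symbol, 932 had several, 9147 had none and 64 were controls. Only those with 1 symbol were used. Per gene the probe set with the highest mean over the 64 arrays was kept. Genes with a mean below the 40th percentile of probe sets (log2 5.94 in hippocampus, 5.91 in prefrontal cortex and 5.93 jointly) were left out, which could remove channels of rare cells.

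limma 3.58.1 in R 4.3.3 was fitted on the 4 groups of a region, or on all 8 for comparisons of regions, without a block, and p-values were adjusted by Benjamini-Hochberg over all genes tested. The threshold was 0.05, and tests were two-sided. Interquartile range per array stood for signal range. On simulated data, 71% of changes of 0.25 log2 and 96% of 0.5 log2 were recovered in the hippocampal drug comparison over 12967 genes. In the comparison of regions over 12955 genes the shares were 89% and 100%. False calls were 14 of 181 and 14 of 203. Only 100 genes were changed by each size. The noise was independent between arrays, without a shared signal range or arrays that stand apart. The shares may therefore differ on the real arrays.

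Named were, in the region difference, each subfamily's largest rise and fall past the threshold and the 10 largest of each in the family; elsewhere every member past the threshold, or the 5 of smallest p; Pde9a; members whose probe sets oppose each other; and up to 4 genes of smallest p per related list. Others named fill counts of 5 or fewer or form a channel with these, and were chosen after their values were seen. Members, gene lists and tests were chosen with earlier results of these data known. The fits without the 3 arrays that stand apart, the fit with the striatal marker level and the split of Kcnj13 by choroid plexus level were added after the data were seen.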

Additional observations from a re-analysis of the deposited data

Results flagged for a closer look

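A sample far from the other 7 of its group, by Dixon's criterion (0.526 for 8 samples), was found in 54 of the 512 combinations of 64 members and 8 groups, or 10.5%. Chance gives about 1 in 20 groups, and members of one array are not independent. These samples came from 17 arrays, and 3 arrays held 34 of the 54.

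In the library labelled hippocampus, Tg2576, PF-04447943, replicate 1, 13 members stood apart, 9 high and 4 low in log2 intensity. High were Kcna5 at 7.33, Kcna6 at 10.11, Kcnh1 at 10.73, Kcnh5 at 6.64, Kcnip3 at 11.52, Kcnj12 at 7.49, Kcnj4 at 10.16, Kcnk2 at 10.34 and Kcnk3 at 8.33. Low were Kcnab1 at 10.35, Kcnd2 at 10.24, Kcng2 at 7.40 and Kcnn2 at 8.23. The direction was towards the prefrontal level in every one of these 13.

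In prefrontal cortex of wild-type mice on PF-04447943, replicate 8 was low in 12 members: Kcna1 at 10.92, Kcnc4 at 8.97, Kcnh7 at 7.82, Kcnip3 at 9.54, Kcnip4 at 9.46, Kcnk4 at 6.94, Kcnn2 at 8.34, Kcnq3 at 10.65, Kcnq5 at 9.28, Kcns2 at 9.12, Kcnt2 at 8.00 and Kcnv1 at 9.15. In wild-type mice on vehicle, replicate 5 was low in 9: Kcnc2 at 10.65, Kcnh5 at 6.70, Kcnj3 at 9.53, Kcnk12 at 6.38, Kcnk4 at 6.78, Kcnma1 at 9.32, Kcnmb4 at 10.41, Kcnt2 at 8.42 and Kcnv1 at 8.78. The striatal marker genes stood at 11.07 and 11.81 on these arrays, within or just above the 8.52 to 11.77 of the other prefrontal arrays.

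Of the remaining hippocampal samples, Kcnj13 stood high at 10.18 in Tg2576 PF-04447943 replicate 4, at 8.59 in Tg2576 vehicle replicate 5 and at 10.03 in wild-type PF-04447943 replicate 5, all among the 7 arrays with high choroid plexus genes. Kcnk1 was high at 11.71 in Tg2576 PF-04447943 replicate 4. Kcnj3 was low at 9.67 in Tg2576 vehicle replicate 3. In wild-type PF-04447943 replicate 1 Kcnab2 was low at 11.86 and Kcnc2 high at 11.46. In wild-type vehicle mice Kcna7 was low at 6.46 in replicate 5, and Kcnh2 at 7.90 and Kcnmb4 at 10.38 were low in replicate 8.

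Of the remaining prefrontal samples, Tg2576 PF-04447943 replicate 2 had Kcna6 at 10.5, Kcnip3 at 11.07 and Kcnj12 at 7.62, all high, and Kcnip2 at 9.94, low. Kcnk4 was low at 7.03 in Tg2576 PF-04447943 replicate 7. In Tg2576 vehicle mice Kcnj13 was low at 5.23 in replicate 1 and Kcnd3 high at 10.69 in replicate 4. Kcnj12 was high at 6.90 in wild-type PF-04447943 replicate 1. In wild-type vehicle mice Kcns2 was low at 8.70 in replicate 3 and Kcnk10 at 5.87 in replicate 4.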

How the results depend on the processing

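The count of members called in the region difference stayed between 37, with a filter at the 60th percentile, and 54, with no filter, and between 46 and 49 when each array was left out in turn. In vehicle-treated wild-type mice it was 33 to 41, and 37 to 40 with each array left out. Of the calls over all groups, 1 reversed: Kcns3 stood at -0.059 with the striatal marker level in the fit. When arrays were left out 1 at a time, Kcnc2 lost its call in 28 of 64 fits, at values from -0.12 to -0.09 over all 64, Kcnk7 lost it without prefrontal wild-type vehicle replicate 1 (0.096), and no other of the 48 did. In vehicle-treated wild-type mice Kcnj13 lost its call in 9 such fits, Kcns2 in 8, Kcnj8 in 7, Kcnj12 in 2 and Kcnk1 in 1. The RNA quality covariate left 41 of the 48 called and the signal range covariate 43.

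The drug effect in hippocampus, 1 member, was called for 3 with no filter (Kcnn4, Kcnk5 and Kcnv2). It was called for 2 with all probe sets (Kcnn4 and Kcnh3) or with array weights (Kcnn4 and Kcnd1). It was called for 0 with the 60th percentile filter, the mean of probe sets, quantile normalization or median centring. Under the filter and the mean of probe sets Kcnn4 itself was no longer tested. Left-out arrays gave 0 to 2 calls. The Kcnn4 call was lost without Tg2576 PF-04447943 replicate 5, 6 or 7, without wild-type PF-04447943 replicate 2, 3, 4, 6 or 7, without Tg2576 vehicle replicate 1, 2, 3 or 4, or without wild-type vehicle replicate 1, 2, 4, 6 or 8, and Kcna4 was called too without wild-type vehicle replicate 7. Its adjusted p lay between 0.013 and 0.88 over the alternatives in which it was tested. Over all genes, 303 were called, and 1 with the signal range covariate to 852 with no filter. Array weights called 1 member for the transgene in hippocampus (Kcnip1, 0.21), 2 for the drug in wild-type hippocampus (Kcnd1 and Kcnn4) and 1 for the drug by region (Kcnn4). The cause was not tested.

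With the replicate block, the replicate number (over both regions, the number within its genotype and treatment) as a term in the fit, 47 of the 48 members were called in the region difference, all but Kcnd3 (adjusted p = 0.060), 41 in vehicle-treated wild-type mice and 2 for the drug in hippocampus, Kcnk7 (-0.18) joining Kcnn4. Deviations of same-numbered hippocampal and prefrontal samples correlated at -0.26 to 0.54 (median 0.16), 20 of 32 pairs over 0.1. Best with its own number were 6 of 8 hippocampal samples in each of 3 groups and 0 of 8 in Tg2576 mice on PF-04447943. Same-numbered samples of different groups within a region, which are not the same mouse, correlated at -0.52 to 0.57. Whether a number marks shared mice or shared processing was not tested. As some pairs fell below 0.1 and no label says that a number marks a mouse, the reported fit treats the 64 arrays as independent, which was not shown. Among relations with marker lists, signs turned for Kcnk13 with microglia in hippocampus (rho -0.030) and Kcnip2 with striatal genes in prefrontal cortex (rho -0.013, and r -0.013 without the 2 farthest arrays).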
